A study of Mus musculus with 6 samples.

Results

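The *Hox* genes were examined cluster by cluster in RNA from the distal colon of mice without Gm31629 and of their WT littermates, all with chemically induced colitis. Members were chosen by symbol, as every row whose mouse symbol was *Hoxa*, *Hoxb*, *Hoxc* or *Hoxd* followed by a number. The table of 27546 genes listed 36 of the 39 *Hox* genes of the mouse annotation, with 11 of 11 in HoxA, 9 of 10 in HoxB, 7 of 9 in HoxC and 9 of 9 in HoxD. *Hoxb1*, *Hoxc12* and *Hoxc13* had no row, and no listed gene was at 0 in all 6 libraries.

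The 3 Gm31629-/- mice lacked a stretch of chromosome 1 that holds the long noncoding RNA Gm31629, and the 3 WT mice carried it. All 6 mice were of the C57BL/6 strain, 8 weeks old, and drank 3% DSS (dextran sulfate sodium, which injures the colonic epithelium) for 7 days before they were sacrificed on day 8, so every value below was taken under injury and no untreated colon was compared. RNA-Seq gave 3 libraries per group, and each is read here as 1 mouse, although the methods speak of pooled RNA. Levels are FPKM (fragments per kilobase of gene relative to the mapped fragments of the library), which correct for gene length and so can be set side by side between genes. The size of 1 fragment in the low values put the depth of the libraries between 18005954 and 18795144 mapped fragments. The labels give no sex and the methods speak of male mice, but Y-linked transcripts were present in the library of Gm31629-/- mouse 1 alone (*Ddx3y* 9.27 FPKM there and 0 in the other 5), and *Xist* was at 0.00606 FPKM in that library and between 8.35 and 13.8 FPKM in the others. Gm31629 itself was not analysed here, so the genotype labels were not checked against it.

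*Hox* genes encode homeodomain transcription factors and lie in 4 clusters, in which the order of the genes along the chromosome follows the order of the body regions that express them. Genes of the same number in different clusters are paralogs, with low numbers acting toward the head and high numbers toward the tail. In the gut, groups 9 to 13 are used by the hindgut, and group 13 marks its posterior end, including the distal colon and rectum. Colonic epithelium and the muscle and connective tissue around it both keep a *Hox* code in the adult.

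Promoters are shown for the called gene with the largest rise, *Hoxd13*, and for paralogs of the genes with the largest rise and fall on the log2(FPKM + 1) scale, *Hoxa13* and *Hoxa6*, since these paralogs carry the same number but did not follow them past the threshold. Each window runs from 250 bases before to 50 bases after the RefSeq start in GRCm38.p6, read 5′ to 3′ on the strand of the gene. Of the 6 genes in these paralog groups with a row in the table, 3 had a window, and *Hoxb13*, *Hoxb6* and *Hoxc6* had none. Capitals mark every match, on either strand, to TTTATG (a CDX site), TAATTA (a homeodomain core), TGATNNAT (a PBX-HOX site), TATAAA or CCAAT.
Hoxd13, chr2:74667975-74668274, plus strand: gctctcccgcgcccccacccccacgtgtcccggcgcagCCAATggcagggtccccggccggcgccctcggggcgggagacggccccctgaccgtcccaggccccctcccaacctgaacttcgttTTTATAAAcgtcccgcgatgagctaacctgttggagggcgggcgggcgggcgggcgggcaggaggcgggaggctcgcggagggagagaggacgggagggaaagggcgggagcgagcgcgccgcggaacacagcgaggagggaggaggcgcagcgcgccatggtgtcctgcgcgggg
Hoxa13, chr6:52260831-52261130, minus strand: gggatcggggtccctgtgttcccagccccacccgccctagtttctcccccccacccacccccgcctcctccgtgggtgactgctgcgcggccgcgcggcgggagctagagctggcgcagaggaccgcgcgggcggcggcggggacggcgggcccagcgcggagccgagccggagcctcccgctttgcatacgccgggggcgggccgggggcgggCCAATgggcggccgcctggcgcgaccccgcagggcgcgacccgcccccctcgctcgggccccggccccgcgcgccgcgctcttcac
Hoxa6, chr6:52208623-52208922, minus strand: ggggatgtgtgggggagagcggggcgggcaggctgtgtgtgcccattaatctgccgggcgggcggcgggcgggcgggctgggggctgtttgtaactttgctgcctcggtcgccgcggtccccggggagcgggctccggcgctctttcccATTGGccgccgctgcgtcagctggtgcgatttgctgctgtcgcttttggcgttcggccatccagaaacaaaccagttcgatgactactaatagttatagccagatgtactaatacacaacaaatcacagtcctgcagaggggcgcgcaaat
CCAAT was found once in each of the 3 windows and in 37.4% of all 32851 promoter windows. TATAAA was found only in the *Hoxd13* window, as 2 overlapping matches on opposite strands, and in 13.6% of all windows. The CDX site, the homeodomain core and the PBX-HOX site had no match in the 3 windows, against 11.8%, 5.29% and 8.85% of all windows. The windows held 37, 45 and 26 CpG dinucleotides for *Hoxd13*, *Hoxa13* and *Hoxa6*, where the median of all windows was 7.

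Of the *Hox* genes, *Hoxd13*, *Hoxb13*, *Hoxa5* and *Hoxd10* rose in Gm31629-/- mice, and the neighbors *Hoxb6*, *Hoxb7*, *Hoxb8* and *Hoxb9* fell. The comparison used limma on log2(FPKM + 1) over 14657 genes, those whose FPKM averaged 0.5 or more, which 21 of the 36 *Hox* genes reached. *Hoxd9*, *Hoxd10* and *Hoxd13* reached it only through the Gm31629-/- group. A call needed a log2 fold change beyond 1 or -1 and an adjusted p (Benjamini-Hochberg) under 0.05. Of the 21, 4 were called higher, where 18.4% of all tested genes were, and 4 were called lower, where 4.64% were. The 3 Gm31629-/- values lay above the 3 WT values for 6 of the 21 (36.3% of all tested genes) and below them for 7 (21.5%), so that 13 of the 21 did not overlap, against 57.8% of all tested genes. The median log2 fold change was -0.13 over the 21 *Hox* genes and 0.15 over all tested genes. In bulk tissue, fewer cells of a type and less RNA per cell cannot be told apart.

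**Figure D1:**
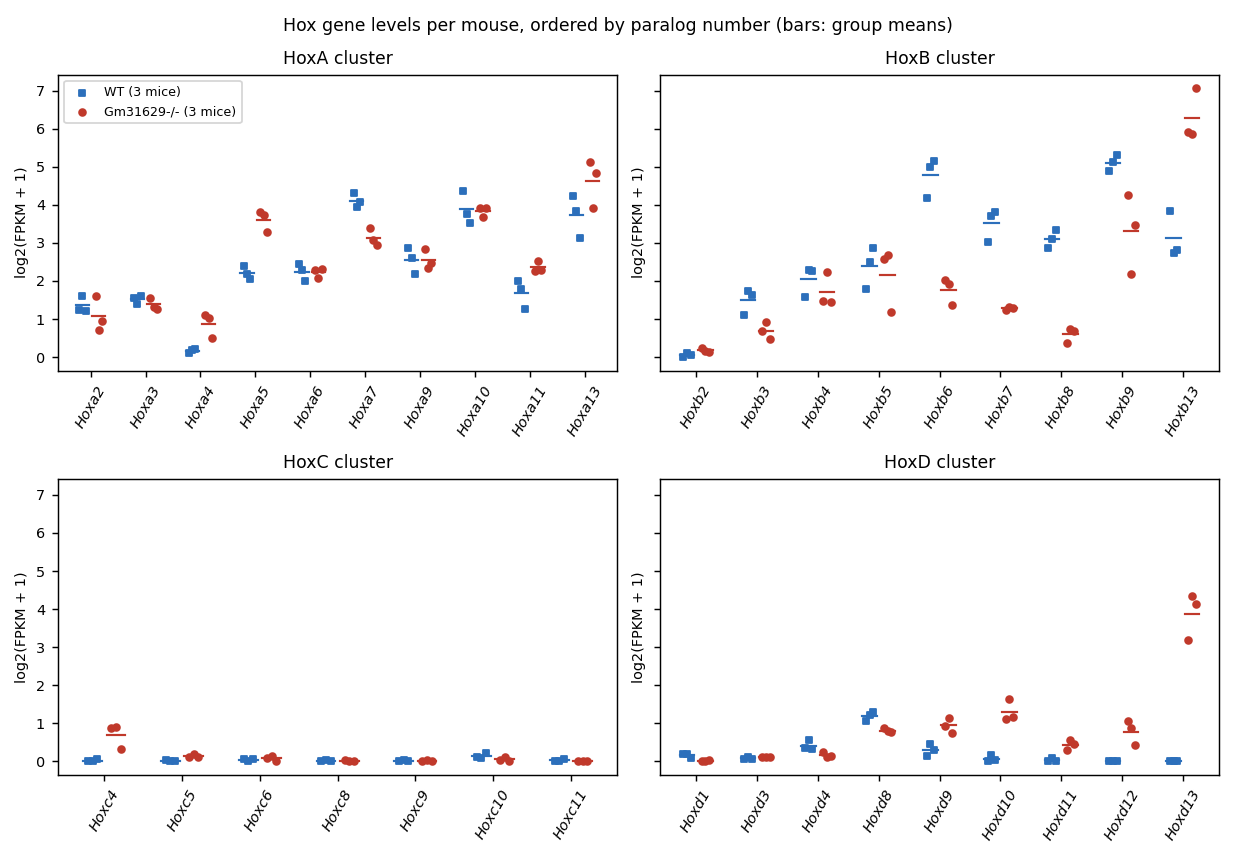
Level of the *Hox* genes as log2(FPKM + 1) on the y axis, with 1 panel per cluster and genes in order of paralog number on the x axis. Squares are the 3 WT mice, circles the 3 Gm31629-/- mice, and short bars the group means of the plotted values. The group means lie furthest apart at *Hoxb6* to *Hoxb9*, with WT higher, and at *Hoxb13* and *Hoxd13*, with Gm31629-/- higher. The groups also do not overlap at other genes, among them *Hoxa5* and *Hoxd10* (Gm31629-/- higher) and *Hoxa7* (WT higher).

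*Hoxd13* and *Hoxb13*, 2 of the 3 listed genes of group 13, gave the largest rises among the called *Hox* genes, and *Hoxa13* was not called. *Hoxd13* (ENSMUSG00000001819, chromosome 2, 74668310 to 74671599 of GRCm38), which patterns the digits and the hindgut sphincter, had 8.12, 19.2 and 16.4 FPKM in Gm31629-/- mice 1 to 3, from 371, 880 and 749 fragments, and 0 in each WT mouse. The WT libraries thus held no fragment of a gene that was present in each Gm31629-/- library. Against a floor of 3 fragments per library, *Hoxd13* was at least 222-fold higher in Gm31629-/- mice (log2 fold change on the log2(FPKM + 1) scale 3.88 with a standard error of 0.30, limma adjusted p = 0.000281).

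*Hoxb13* (ENSMUSG00000049604, chromosome 11, 96194316 to 96197447), which marks the distal colon, rectum and prostate, was the most abundant *Hox* gene in every Gm31629-/- library. It had 59.0, 57.0 and 133 FPKM in Gm31629-/- mice 1 to 3 and 13.3, 5.66 and 6.03 FPKM in WT mice 1 to 3. The groups did not overlap, and mouse 3 was the highest of the Gm31629-/- mice. The group means were 83.1 ± 43.4 and 8.34 ± 4.32 FPKM (SD, n = 3 each), a ratio of 9.96 (log2 fold change 3.15 with a standard error of 0.41, adjusted p = 0.00155 by limma).

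*Hoxa13* (ENSMUSG00000038203), which acts with *Hoxd13* in the hindgut and the genital tubercle, had 34.0, 13.99 and 27.7 FPKM in Gm31629-/- mice and 17.7, 13.4 and 7.73 FPKM in WT mice. The groups overlapped, since Gm31629-/- mouse 2 was below WT mouse 1. Its log2 fold change was 0.89 with a standard error of 0.38 (adjusted p = 0.0976 by limma), and without Gm31629-/- mouse 2 it was 1.25 and passed the test (adjusted p = 0.0264). *Hoxa13* made up 56.2% to 70.2% of the group 13 FPKM in WT mice and 15.5% to 33.6% in Gm31629-/- mice, and the share did not overlap between the groups. That sum holds the called *Hoxd13* and *Hoxb13*, so the lower share follows from their rise and shows no fall of *Hoxa13*.

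Beside *Hoxd13*, *Hoxd10* was the only called gene of HoxD, and for *Hoxd9*, *Hoxd11* and *Hoxd12* the Gm31629-/- values lay above the WT values without a call. *Hoxd10*, which acts in limb and hindlimb motor neuron patterning, had 1.17, 2.12 and 1.23 FPKM in Gm31629-/- mice, from 39, 71 and 41 fragments, and 0, 4 and 1 fragments in WT mice (log2 fold change 1.23 with a standard error of 0.19, limma adjusted p = 0.0026). *Hoxd9* had 36, 48 and 27 fragments against 4, 14 and 9, and its log2 fold change of 0.65 had an adjusted p of 0.0199 by limma without reaching the fold-change threshold. That limma adjusted p ranged from 0.0137 to 0.075 with 1 mouse left out. The groups did not overlap for *Hoxd10* or *Hoxd9*.

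*Hoxd11* and *Hoxd12* were under the mean FPKM filter and are given as fragments. *Hoxd12* had 50, 39 and 16 fragments in Gm31629-/- mice and 0 in each WT mouse, at least 11.7-fold higher against the floor of 3 fragments per library. *Hoxd11* had 18, 38 and 28 fragments against 0, 5 and 0. In a fit without the filter, over 27546 genes, both had an adjusted p under 0.05 by limma (0.0187 for *Hoxd12* and 0.0155 for *Hoxd11*), with log2 fold changes of 0.78 and 0.41, below the threshold.

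The other end of HoxD did not follow. *Hoxd8* had 0.832, 0.731 and 0.694 FPKM in Gm31629-/- mice and 1.10, 1.34 and 1.47 FPKM in WT mice, lower without overlap (log2 fold change -0.39, limma adjusted p = 0.0678). *Hoxd4* had 10, 4 and 6 fragments against 15, 25 and 14, and *Hoxd1* had 0, 0 and 1 against 5, 5 and 2. *Hoxd3* had 6 fragments in each Gm31629-/- mouse and 3, 7 and 4 in WT mice, where the groups overlapped. *Hoxd3* shares 53.1% and *Hoxd4* 39.1% of its exon bases with the gene model Gm28230, so fragments of these could be split or dropped in counting.

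**Figure D2:**
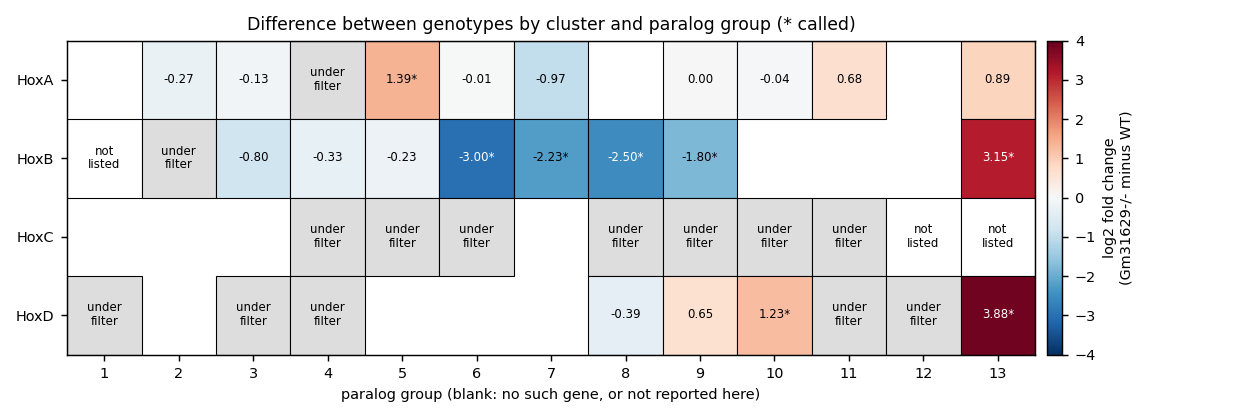
Log2 fold change (Gm31629-/- minus WT, on the log2(FPKM + 1) scale) of each *Hox* gene, with clusters as rows and paralog groups 1 to 13 as columns. Asterisks mark the 8 called genes, gray cells genes under the mean FPKM filter of 0.5, blank cells no gene or one not reported here, and the color scale runs from -4 to 4; the falls lie at HoxB 6 to 9 and the largest rises in column 13.

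In HoxB, 4 neighboring genes fell together. *Hoxb6* (ENSMUSG00000000690, chromosome 11, 96292476 to 96301569), a gene of trunk patterning, had 17.1, 30.7 and 34.7 FPKM in WT mice 1 to 3 and 3.07, 2.81 and 1.58 FPKM in Gm31629-/- mice 1 to 3. No Gm31629-/- value came near the WT range. On the log2 scale it fell by 3.00 with a standard error of 0.30 (adjusted p = 0.000597 by limma). This was the largest fall among the *Hox* genes tested on this scale, but with a pseudocount of 0.1 *Hoxb8* fell further (-3.68 against -3.41), as it did with voom (-3.92 against -3.45).

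*Hoxb8*, which acts in hematopoietic progenitors and in trunk patterning, had 6.28, 7.57 and 9.11 FPKM in WT mice and 0.289, 0.658 and 0.620 FPKM in Gm31629-/- mice (log2 fold change -2.50 with a standard error of 0.19, limma adjusted p = 0.000287). *Hoxb7*, which lies between them, had 7.18, 12.12 and 12.96 FPKM in WT mice and 1.37, 1.51 and 1.45 FPKM in Gm31629-/- mice (log2 fold change -2.23 with a standard error of 0.23, limma adjusted p = 0.000631). Neither gene overlapped between the groups.

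*Hoxb9*, the most abundant *Hox* gene in every WT library, had 28.6, 33.8 and 38.9 FPKM in WT mice and 18.1, 3.58 and 10.1 FPKM in Gm31629-/- mice. Gm31629-/- mouse 1 kept the highest level of the 3 and mouse 2 the lowest, and no value reached the WT range. On the log2 scale it fell by 1.80 with a standard error of 0.47 (adjusted p = 0.0202 by limma). *Hoxb9* lost its call in 3 of 6 fits that each left out 1 library, namely without Gm31629-/- mouse 3 (adjusted p = 0.0509), WT mouse 2 (0.0565) or WT mouse 3 (0.0763), and the other 7 called genes kept theirs in 6 of 6.

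No gene of HoxB below number 6 was called. *Hoxb3* had 0.601, 0.880 and 0.384 FPKM in Gm31629-/- mice and 1.14, 2.33 and 2.103 FPKM in WT mice, lower without overlap (log2 fold change -0.80, limma adjusted p = 0.0241), but 52.9% of its exon bases are shared with the antisense gene *Hoxb3os*. The limma adjusted p of *Hoxb3* ranged from 0.0197 to 0.0923 with 1 mouse left out. *Hoxb4*, a gene of hematopoietic stem cells, and *Hoxb5*, which acts in enteric neural crest, overlapped between the groups, with log2 fold changes of -0.33 (adjusted p = 0.393) and -0.23 (limma adjusted p = 0.701). *Hoxb5* had 5.01 and 5.39 FPKM in Gm31629-/- mice 1 and 2 and 1.27 FPKM in mouse 3, against 2.43 to 6.28 FPKM in WT mice. *Hoxb2* was under the filter, with 11, 8 and 6 fragments in Gm31629-/- mice and 0, 5 and 2 in WT mice.

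Within a library, the ratio of 2 genes does not change with scaling. Each pair given here holds a called gene, so these ratios are not independent of the calls. The ratio of *Hoxb13* to *Hoxb9* was 3.26, 15.9 and 13.2 in Gm31629-/- mice 1 to 3 and 0.465, 0.168 and 0.155 in WT mice 1 to 3. In each WT library *Hoxb9* was the more abundant of the pair, and in each Gm31629-/- library *Hoxb13* was. The ratio of *Hoxb6* to its neighbor *Hoxb5* was 5.53 to 7.06 in WT mice and 0.522 to 1.24 in Gm31629-/- mice. Between paralogs, *Hoxb6* stood at 3.84 to 11.6 times *Hoxa6* in WT mice and 0.396 to 0.873 times in Gm31629-/- mice, and *Hoxb7* at 0.383 to 0.845 and 0.146 to 0.215 times *Hoxa7*.

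**Figure D3:**
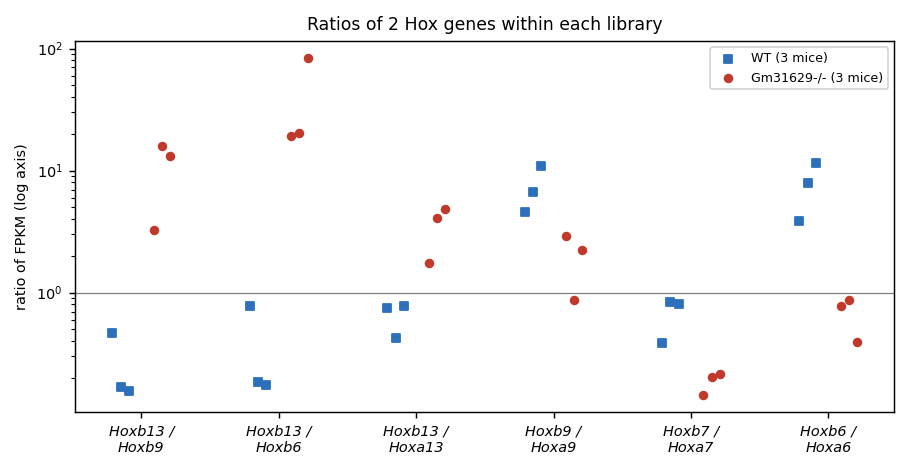
Ratios of the FPKM of 2 *Hox* genes within each library, on a log axis, for 6 pairs along the x axis. Squares are the 3 WT mice, circles the 3 Gm31629-/- mice, and the gray line a ratio of 1. The groups do not overlap for any of the 6 pairs, and *Hoxb13* passes *Hoxb9* and *Hoxb6* only in Gm31629-/- libraries. Each pair holds a called gene, so the separation is not independent of the calls.

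HoxA held the most evenly expressed genes. Of its 9 tested genes, only *Hoxa5* was called. *Hoxa5*, which acts in the mesenchyme of lung and gut, had 12.9, 12.4 and 8.73 FPKM in Gm31629-/- mice and 4.29, 3.55 and 3.17 FPKM in WT mice, without overlap (ratio of means 3.09, log2 fold change 1.39 with a standard error of 0.19, limma adjusted p = 0.00188). *Hoxa4*, next to it, was under the filter and had 34, 30 and 12 fragments in Gm31629-/- mice and 2, 4 and 5 in WT mice. In the fit without the filter, *Hoxa4* had a log2 fold change of 0.70 and a limma adjusted p of 0.033.

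*Hoxa7* had 9.43, 7.46 and 6.72 FPKM in Gm31629-/- mice and 18.7, 14.3 and 15.9 FPKM in WT mice. It was lower without overlap and lay just inside the fold-change threshold (log2 fold change -0.97 with a standard error of 0.18, limma adjusted p = 0.00502), passing it under 5 of the other settings. *Hoxaas3*, an antisense gene that shares 20.4% of the *Hoxa7* exon bases, was lower as well (log2 fold change -0.58, adjusted p = 0.0256 by limma). *Hoxa11*, which acts in kidney, limb and reproductive tract, had 3.83, 4.74 and 3.90 FPKM in Gm31629-/- mice and 2.98, 2.48 and 1.40 FPKM in WT mice (log2 fold change 0.68, limma adjusted p = 0.0432), and its antisense gene *Hoxa11os*, which shares 35% of its exon bases, had a log2 fold change of 0.70 (adjusted p = 0.0289). With 1 mouse left out, the limma adjusted p of *Hoxa11* ranged from 0.0451 to 0.131.

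Other HoxA genes overlapped between the groups. *Hoxa10*, used in the posterior trunk and uterus, had 11.8 to 14.2 FPKM in Gm31629-/- mice and 10.5 to 19.5 FPKM in WT mice (log2 fold change -0.04 with a standard error of 0.23, limma adjusted p = 0.911). *Hoxa6* and *Hoxa9* had log2 fold changes of -0.01 (standard error 0.18) and 0.0032 (standard error 0.23), in contrast to -3.00 and -1.80 for their HoxB paralogs. *Hoxa2* and *Hoxa3* had log2 fold changes of -0.27 and -0.13 (limma adjusted p = 0.431 and 0.524).

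HoxC was close to silent in both groups, with a summed level of 0.342 to 1.23 FPKM over its 7 listed genes in Gm31629-/- mice and 0.101 to 0.306 FPKM in WT mice. None of its genes passed the filter. *Hoxc4*, the most anterior member, had 40, 41 and 12 fragments in Gm31629-/- mice and 0, 0 and 2 in WT mice, and *Hoxc5* had 5, 8 and 5 against 1, 0 and 0. In the fit without the filter, their log2 fold changes were 0.68 and 0.14 (limma adjusted p = 0.0285 and 0.0247). *Hoxc6*, *Hoxc8*, *Hoxc9*, *Hoxc10* and *Hoxc11* had at most 6 fragments in any library, so a difference was not detectable at this depth.

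Summed over the 36 genes, total *Hox* expression was 193, 163 and 243 FPKM in Gm31629-/- mice and 157, 163 and 165 FPKM in WT mice. The totals overlapped while their makeup differed. These sums hold the called genes, so the shares and the mean paralog number given below are not independent of the calls. Groups 10 to 13 took 63.0%, 67.8% and 81.1% of the *Hox* FPKM in Gm31629-/- mice 1 to 3 and 34.0%, 21.1% and 15.7% in WT mice 1 to 3. Group 13 alone took 52.4% to 72.8% against 8.32% to 19.7%, and groups 5 to 8 took 10.3% to 21.1% against 39.2% to 52.4%. Groups 10 to 12 took 8.24% to 12.4% against 7.34% to 14.3%, with overlap, so the difference in groups 10 to 13 lay in group 13.

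The mean paralog number, weighted by FPKM, was 10.4, 10.4 and 11.6 in Gm31629-/- mice and 8.72, 7.97 and 7.73 in WT mice. Gm31629-/- mouse 3 had the most posterior makeup, and WT mouse 1 was the WT mouse nearest to the other group. By cluster, groups 10 to 13 held 84.1% to 92.0% of HoxD in Gm31629-/- mice and 0% to 7.24% in WT mice, and 66.0% to 88.5% of HoxB against 5.29% to 17.1%. In HoxA the same share was 49.96% to 63.0% against 40.0% to 51.8%, and the groups overlapped. HoxA as a whole supplied 29.9% to 46.5% of the *Hox* FPKM in Gm31629-/- mice and 29.6% to 49.2% in WT mice.

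**Figure D4:**
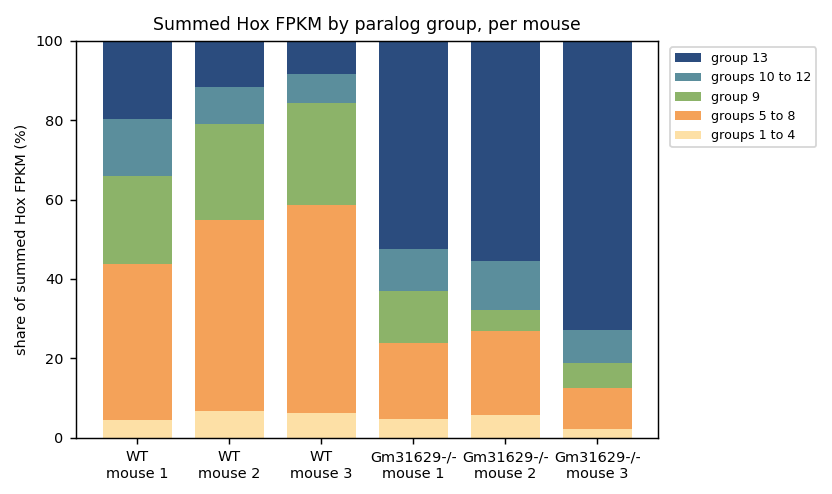
Share of the summed FPKM of the 36 listed *Hox* genes (y axis, percent) taken by each range of paralog groups, with 1 stacked bar per mouse, WT on the left and Gm31629-/- on the right. Group 13, at the top, is between 8.32% and 19.7% in WT mice and between 52.4% and 72.8% in Gm31629-/- mice. The sums hold the called genes, so the shares are not independent of the calls.

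Other genes lie inside or within 20 kb of the clusters. Of 34 such listed genes, 18 passed the filter, and 4 were called higher and 2 lower, where 18.4% and 4.64% of all tested genes were. The 3 neighbors nearest *Hoxb13* were noncoding genes and rose as it did. *Gm11535*, on its outer side, had 2.095, 0.557 and 4.90 FPKM in Gm31629-/- mice and 0.0695, 0 and 0 FPKM in WT mice (limma adjusted p = 0.0239). *Gm27898* and *Gm27605*, on its inner side, had log2 fold changes of 2.19 and 2.21 (adjusted p = 0.0133 and 0.0047 by limma). *Gm27861*, at the anterior end of HoxA, was the fourth, with 4, 3 and 8 fragments in Gm31629-/- mice and 0 in WT mice. *Gm11535* and *Gm27861* passed the filter only through the Gm31629-/- group.

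*Mir196a-1* (ENSMUSG00000065546) and *Gm53*, which lie between *Hoxb13* and *Hoxb9*, fell. The microRNA made from *Mir196a-1* is known to act on *Hoxb8* mRNA. Fragments at *Mir196a-1* came to 38.4, 17.5 and 37.4 FPKM in Gm31629-/- mice and 54.1, 76.2 and 72.0 FPKM in WT mice (log2 fold change -1.16, limma adjusted p = 0.0219), and these libraries did not measure the mature microRNA. *Gm53* had a log2 fold change of -1.31 (limma adjusted p = 0.0322). *Hottip*, a noncoding gene beside *Hoxa13*, had 8.85, 1.09 and 7.39 FPKM in Gm31629-/- mice and 2.497, 1.29 and 1.03 FPKM in WT mice, with overlap (adjusted p = 0.147 by limma). *Evx2*, at the *Hoxd13* end of HoxD, was under the filter, with 0.351 to 1.06 FPKM in Gm31629-/- mice and 0 in WT mice.

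HOX proteins bind DNA together with TALE homeodomain partners of the PBX, MEIS and PKNOX families. Of 9 partner genes, 7 passed the filter, 4 were called higher and none lower, with a median log2 fold change of 1.203, where 18.4% of all tested genes were called higher and the median was 0.15. *Meis2* had 2.73, 3.35 and 1.24 FPKM in Gm31629-/- mice and at most 0.0646 FPKM in WT mice (log2 fold change 1.69, limma adjusted p = 0.00259). *Pbx3*, *Meis1* and *Meis3* had log2 fold changes of 1.32, 1.21 and 1.203 (limma adjusted p = 0.00963, 0.00247 and 0.00272). *Meis2* and *Meis1*, the latter at most 0.0257 FPKM in WT mice, passed the filter only through the Gm31629-/- group, so their calls and the median depend on it. *Pbx2* and *Pknox1* overlapped between the groups and had log2 fold changes of -0.13 and -0.03 (limma adjusted p = 0.519 and 0.904).

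The caudal genes *Cdx1* and *Cdx2*, which set intestinal identity in the epithelium and regulate *Hox* genes in the embryo, both fell. *Cdx2* had 82.1, 11.6 and 14.9 FPKM in Gm31629-/- mice and 200, 238 and 234 FPKM in WT mice (log2 fold change -3.14 with a standard error of 0.65, limma adjusted p = 0.00847). Gm31629-/- mouse 1 kept the most *Cdx2* of its group. It also had the most *Hoxb9* and *Hoxb6* of its group, but the least *Hoxb7* and *Hoxb8*. *Cdx1* had 110, 73.0 and 126 FPKM against 222, 237 and 233 FPKM (log2 fold change -1.19, limma adjusted p = 0.00502). Without Gm31629-/- mouse 2, 1 of these 2 falls was called. *Evx1*, the third tested gene of this list, overlapped between the groups (log2 fold change -0.27, adjusted p = 0.354 by limma).

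**Figure D5:**
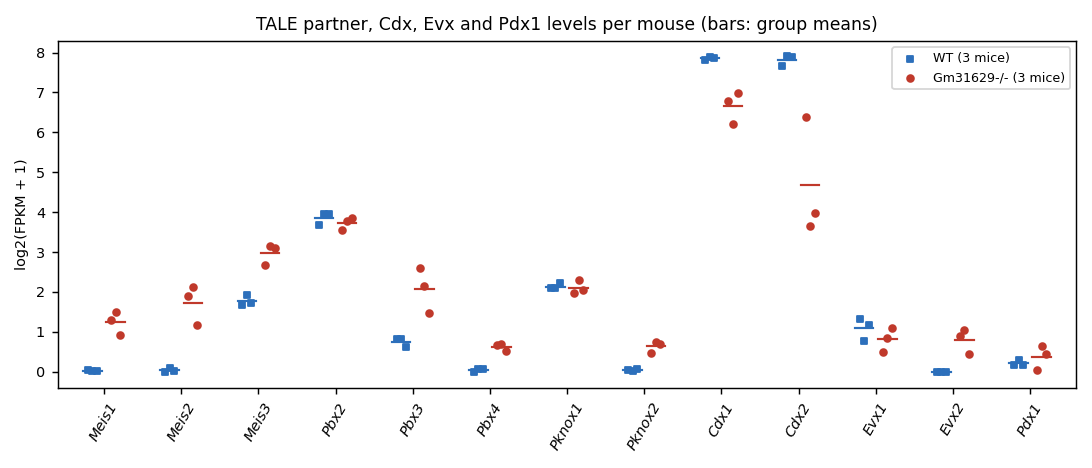
Levels of TALE partner genes (left) and of the listed *Cdx*, *Evx* and *Pdx1* genes (right) as log2(FPKM + 1) per mouse. Squares are the 3 WT mice, circles the 3 Gm31629-/- mice, and short bars the group means of the plotted values; *Meis1*, *Meis2*, *Meis3* and *Pbx3* are higher, and *Cdx1* and *Cdx2* lower, in Gm31629-/- mice.

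Polycomb proteins keep *Hox* genes silent and Trithorax proteins keep them active. Of 23 Polycomb genes tested, 4 were called higher and 0 lower at a limma adjusted p under 0.05, with a median log2 fold change of 0.27, where 18.4% of all tested genes were called higher and the median was 0.15. *Cbx6* rose by 2.13, *Rnf2*, the catalytic ubiquitin ligase of the first Polycomb complex, by 1.41, its partner *Bmi1* by 1.40 and *Mtf2* by 1.014 (log2 scale, adjusted p = 0.000294, 0.00148, 0.00385 and 0.0168). Of 11 Trithorax and H3K27 demethylase genes, 1 was called, *Psip1*, with a log2 fold change of 1.69 (limma adjusted p = 0.00102). Over the 4 lists of partners and regulators, 9 of 44 tested genes were called higher and 2 lower, counts close to the 18.4% and 4.64% of all tested genes, and the median log2 fold change was 0.03.

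Markers of cell types also differed between the groups. The summed level of 12 smooth muscle markers was 1323 to 2050 FPKM in Gm31629-/- mice and 25.7 to 45.8 FPKM in WT mice. Of these, 10 of 11 tested were called higher, where 18.4% of all tested genes were. For 10 fibroblast markers it was 274 to 790.0 against 26.8 to 48.9 FPKM (10 of 10 called higher), for 12 enteric neuron and glia markers 48.9 to 213 against 2.94 to 5.54 FPKM (11 of 12), for 10 endothelial markers 68.6 to 125 against 3.00 to 8.37 FPKM (10 of 10), and for 8 leukocyte markers 461 to 835 against 33.9 to 48.9 FPKM (7 of 8). For 15 epithelial markers the summed level was 8850 to 10470 against 13580 to 14874 FPKM, with 3 called lower, where 4.64% of all tested genes were. The Gm31629-/- values lay below the WT values for 8 of the 15 and above them for 1, *Tspan8*, and the rest overlapped. Among the overlapping genes, *Epcam* and *Cdh1* had log2 fold changes of 0.0054 and -0.04 (limma adjusted p = 0.982 and 0.844). The part of these cell type markers in the *Hox* differences was not tested.

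Smaller lists completed the picture of other tissues. Adipocyte markers summed to 140 to 503 against 13.4 to 56.5 FPKM (4 of 5 tested called higher), mesothelial markers to 3.44 to 41.9 against 2.51 to 3.00 FPKM (2 of 3), and skeletal muscle markers to 11.5 to 109 against 9.05 to 14.2 FPKM (2 of 4), with the defining genes *Myh1* and *Myh2* at most 0.092 FPKM. Among all tested genes, 18.4% were called higher. Squamous epithelium markers summed to 1.47 to 4.39 against 0.773 to 0.874 FPKM, without overlap, with 3 of 6 genes above WT in each Gm31629-/- mouse and 0 of 2 tested genes called. An alternative added after the data were seen scaled each library to the epithelial list. In it *Hoxb13*, *Hoxd13*, *Hoxb6* and *Hoxb8* had log2 fold changes of 3.53, 4.07, -2.65 and -2.25. The 8 called *Hox* genes kept their direction. The scaling could not have turned them, since it moved the median of all tested genes only from 0.15 to 0.46. When scaled to the fibroblast markers, where that median was -2.28, *Hoxd13* had 2.44, *Hoxb13* 0.063, *Hoxd10* 0.39 and *Hoxa5* -1.39. With the smooth muscle markers, where that median was -2.98, *Hoxd13* had 2.12, *Hoxb13* -0.83, *Hoxd10* 0.22 and *Hoxa5* -2.19.

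All tissue is labelled as colon, and the design text places it in the distal part. Of 8 colon genes, 8 were present in every library and 4 were called lower, where 4.64% of all tested genes were. The 4 included *Cdx1*, *Cdx2* and *Car1*, and none of the 8 was called higher. *Car1* had 509 to 2165 FPKM in Gm31629-/- mice and 3886 to 5459 FPKM in WT mice, while *Car4* had 348 to 2050 against 355 to 441 FPKM with overlap. *Car4*, *Slc26a3* and *Aqp8* had log2 fold changes of 1.31, 1.02 and 1.02 (limma adjusted p = 0.114, 0.362 and 0.0536), with overlap in each. The labels give no distance along the colon, so where each piece was cut and the genotype cannot be told apart.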

How the data were processed

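Distal colons of 3 Gm31629-/- and 3 WT mice were profiled by RNA-Seq. The authors deposited FPKM values, 1 column per library, for 27546 genes listed by Ensembl identifier. Their processing notes name HISAT2 2.1.0, HTSeq 0.6.0 and GRCm38. The annotation release and strand setting are not given in the sources used here. The library kit was the TruSeq RNA kit, so a gene and its antisense partner may not be separable. Groups came from the genotype labels and replicate numbers from the titles. Nothing says that same-numbered mice were paired.

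GENCODE M21 (GRCm38) gave the symbols, coordinates and exon lengths, and 27488 identifiers matched. Depth was estimated from the size of 1 fragment, and 96.3% to 97.2% of the low values (20 fragments or fewer) were whole to within 0.1. Intervals and floors cover counting error only. No 2 libraries of a group agreed within counting noise (chi-square per gene 32.3 to 144), and each was counted as 1 replicate. The check compares with counting noise alone, so it cannot tell libraries of separate mice from separate libraries of 1 RNA pool.

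Differences were fitted with limma 3.58.1 (R 4.3.3), using eBayes with an intensity trend, on log2(FPKM + 1) where FPKM averaged 0.5 or more. The added 1 understates changes of low genes. The study's own DEGseq comparison was not repeated. With 3 mice per group, p-values measure only the spread between these libraries, which may be technical. The members and lists were chosen with earlier results of these data known. The *Hox* genes are described by name, and of the other lists the called genes, tested TALE, *Cdx* and *Evx* genes and the main neighbors. A few genes that enter the counts are not reported here by name. *Evx2* and the marker genes named beside a result were picked with their values in view. The script was tested on simulated data with raised levels and without the added 1, so the test did not cover genes near 0. Alternatives were another pseudocount (0.1), no filter or a filter of 5, rescaling to equal sums or by the median ratio, no trend, a replicate block, leaving out each mouse, other call rules, voom on recovered fragments, and scaling to marker lists. Promoter sequences are from RefSeq (GRCm38.p6). Figures were drawn with matplotlib 3.10.9.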

Additional observations from a re-analysis of the deposited data

How the results depend on the processing

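Of 303 refits of the 21 tested *Hox* genes, 277 kept direction and side of the threshold. The 4 higher and 4 lower *Hox* calls became 2 and 3 with limma treat, 5 and 6 with a pseudocount of 0.1 or voom, and 6 and 6 by adjusted p alone. The direction turned in 10 refits of *Hoxa6*, *Hoxa9*, *Hoxa10* and *Hoxb5*. *Hoxa9* was -0.21 by the median ratio. With 1 mouse left out, *Hoxa9* ranged from -0.18 to 0.16, *Hoxb5* from -0.53 to 0.25, *Hoxa10* from -0.21 to 0.20 and *Hoxa6* from -0.135 to 0.092. With 1 mouse left out, the *Hox* calls were 4 to 5 higher and 3 to 5 lower.

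Over all genes, 2704 higher and 680 lower became 956 and 493 with a mean FPKM of at least 5, 4238 and 2138 by adjusted p alone, and 795 and 117 with treat, and 2232 and 1217 by the median ratio, which moved the median of all genes from 0.15 to -0.06. The 9 higher and 2 lower partner and regulator genes became 1 and 2 with a mean FPKM of at least 5 (19 tested), 15 and 7 by adjusted p alone, and 1 and 0 with treat, and 1 to 2 were lower with 1 mouse left out (1 without Gm31629-/- mouse 2). The *Hox* median was -2.44 with fibroblast and -3.01 with smooth muscle scaling, where the median of all genes was -2.28 and -2.98. Groups 10 to 13 took 47.04 percentage points more of the *Hox* FPKM in Gm31629-/- mice, against 31.2 for groups 9 to 13 and 32.2 without *Hoxb13*. The replicate block gave 4 higher and 4 lower *Hox* calls, and 2709 and 648 over all genes. Deviations of same-numbered mice correlated at -0.108 to 0.0358, and those of differently numbered mice at -0.133 to 0.116. With 3 mice per group, these values cannot decide whether the numbers pair the mice. The depth limits HoxC, where 5 genes had at most 6 fragments.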
